A study of Mus musculus with 12 samples.

Results

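The second deletion of a double knockout was examined in embryonic fibroblasts of C57BL/6 mice in which an adenovirus delivered MyoD to start muscle differentiation. Cells lacking both Kdm5a and Rb1 (DKO, genotype Kdm5a-/-;Rb1-/-) were set against cells lacking Rb1 alone (Rb1 KO, Rb1-/-), and cells lacking Kdm5a alone (Kdm5a KO, Kdm5a-/-) and wild type cells (WT) served to place that difference. Each of these 4 groups had 2 libraries of the whole, mixed culture, all from the same strain, virus and medium: 24 h with virus in 2% horse serum and 10 µg/ml insulin, then 72 h in fresh medium of the same kind. Ribosomal RNA was removed from 1.7 µg of total RNA, and 40 bases were read from each fragment. The members are all genes with a mean of at least 10 normalised read counts over the 8 mixed libraries, apart from those on X and Y, which makes 16544 of the 36229 identifiers in the table. The remaining 4 libraries of the series, of purified myotubes, were not used. The question was which of the expression changes seen after loss of Rb1 are taken back when Kdm5a is lost too, and which stay.

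The retinoblastoma protein, encoded by Rb1, binds E2F factors and represses genes of DNA replication and mitosis when cells leave the cycle, and it is needed for full expression of late muscle genes during MyoD-driven differentiation. Kdm5a (also Jarid1a or Rbp2) is a histone demethylase that removes methyl groups from lysine 4 of histone H3 and was first isolated as a protein that binds the retinoblastoma protein. MyoD starts the muscle programme in fibroblasts. It switches on Myog and Mef2 factors and, through them, the genes of the contractile filaments. Fibroblasts that do not convert keep expressing collagens and other matrix genes, so a mixed culture holds RNA of both kinds of cell. In such bulk libraries fewer cells of a type and less RNA per cell cannot be told apart.

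The libraries held 31158818 and 41309134 reads in DKO and 11983750 and 17864184 reads in Rb1 KO, with 21567550 and 27688963 in Kdm5a KO and 16458373 and 18469731 in WT. The median gene differed between the libraries of a group by 0.105 (DKO), 0.154 (Rb1 KO), 0.150 (Kdm5a KO) and 0.184 (WT) on the log2 scale. The targeted Kdm5a (ENSMUSG00000030180) read 1319 and 1369.7 normalised counts in DKO, against 2094 and 1886 in Rb1 KO, 1088 and 1192 in Kdm5a KO and 1637 and 1871 in WT, and it was lower in DKO than in Rb1 KO (log2 difference -0.56 ± 0.08, limma adjusted p = 0.000134). Its exons overlap those of Ccdc77. Rb1 (ENSMUSG00000022105) read 5309 and 5662 in DKO, against 4457 and 4448 in Rb1 KO and 5616 and 5649.5 in WT. Its exons overlap Lpar6 and Rcbtb2, and which part of the gene was removed is not stated, so its whole-gene level does not check the Rb1 label. Xist, which silences an X chromosome in female cells, had 6933 and 6809.7 counts in DKO and 0 in both Rb1 KO libraries, and the Y-linked Ddx3y had 0 in both DKO libraries and 1267 and 1079.8 in Rb1 KO. DKO and Kdm5a KO cells were thus female and Rb1 KO and WT cells male, so in every DKO to Rb1 KO difference loss of Kdm5a and sex cannot be told apart.

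Differences below are log2 differences of the normalised count + 1, given ± the standard error, from limma on the 8 mixed libraries, with n = 2 per group. This scale understates the change of genes with few reads. The verbs rise and fall are kept for genes whose adjusted p over all genes was below 0.05. Whether both libraries of a group came from different cultures or embryos is not stated, so p-values measure only the spread between these libraries. A dagger (†) marks genes that share exons with a neighbour in the annotation used here. Their levels are uncertain because the same reads may count for both genes. Muscle genes such as Myog and fibroblast genes such as Col5a2 were read in every library.

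Nearly 1 gene in 2 differed between DKO and Rb1 KO. Wording such as second deletion or Kdm5a loss below names the genotypes compared, from which sex cannot be told apart. In DKO against Rb1 KO 3798 genes were higher (23.0% of those tested) and 4020 were lower (24.3%), and 1557 and 1201 of these differed at least 2-fold. The median over all genes was -0.01. Loss of Rb1 alone had lowered 2872 genes (17.4%) and raised 3787 genes (22.9%) by at least 1 on the log2 scale in Rb1 KO against WT. These 6659 genes were sorted by their DKO to Rb1 KO difference. A gene was called restored where DKO differed from Rb1 KO in the direction opposite to the Rb1 change, moved further where DKO differed in the same direction, and left where it did not pass and the 95% interval of the DKO to Rb1 KO difference lay within 0.5 of 0. The rest were undecided. Both differences use the same Rb1 KO libraries, so the class sizes describe these genes and are not a test.

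Among the genes that had fallen with Rb1 loss, 1665 were restored, 359 were left, 175 moved further and 673 were undecided. Among those that had risen, 1391 were restored, 377 were left, 413 moved further and 1606 were undecided. Recovery was mostly partial. The recovered share, which is the DKO to Rb1 KO difference as a percentage of the Rb1 change with its sign turned, had a median of 60.2% over the restored genes that had fallen and 53.5% over the restored genes that had risen. The quartiles were 41.4 and 85.1% for the restored genes that had fallen and 35.4 and 78.0% for those that had risen. DKO still differed from WT on the Rb1 KO side in 1076 of the 1665 restored genes that had fallen and in 976 of the 1391 that had risen, and it lay beyond WT in 102 and 53. For 72 and 113 restored genes the 95% interval of the DKO to WT difference lay within 0.5 of 0. Undecided genes had low levels, with a median of 54.1 normalised counts on the side that fell, against 342 for restored and 856 for left genes.

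**Figure D1:**
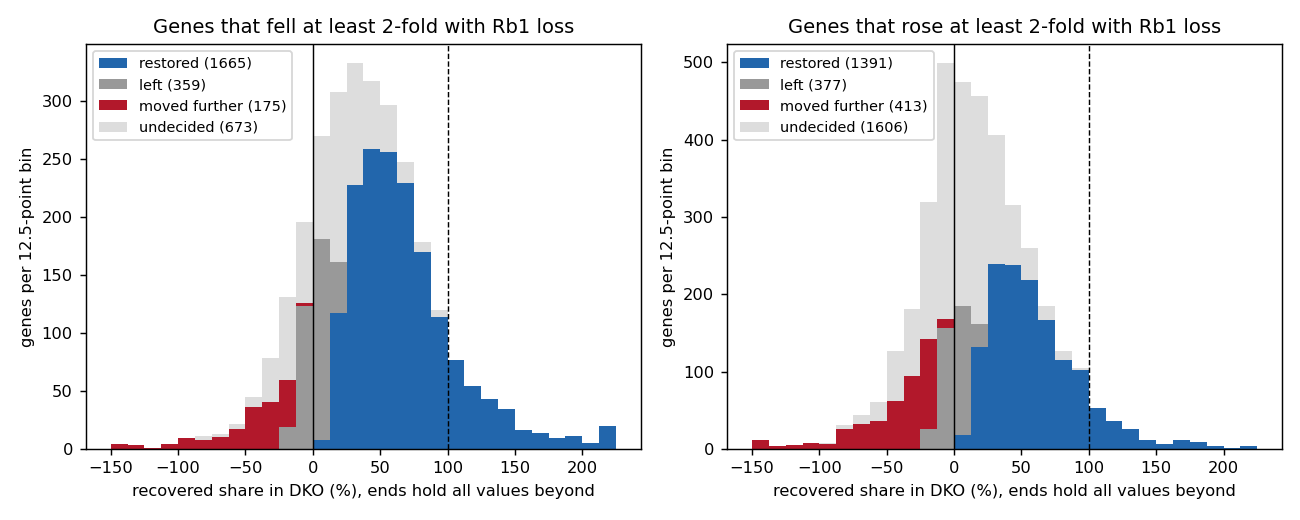
Recovered share in DKO (%, x axis) of every gene that fell (left panel) or rose (right panel) at least 2-fold with Rb1 loss, counted in bins of 12.5 points and stacked by class, with 0 (solid line, no recovery) and 100% (dashed line, WT level) marked. Restored genes center on partial recovery, with medians of 60.2% and 53.5%, and genes left by the second deletion lie around 0.

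Promoters of 4 genes from these classes are shown because they hold the motifs counted afterwards. They were picked for that and do not stand for their classes. Single promoters were searched only for the 6 genes of each class with the largest Rb1 change. Of those among them that rose with Rb1 loss and have a promoter in the table, Clspn and Dtl alone held the E2F motif. Brip1, Fam111a† and Wdhd1† (left) and Hmmr, Sgo2a† and Top2a† (moved further) did not. Other named genes were not searched singly. The E-box stood also in promoters of Rhobtb1†, Stom and Fam111a†, which were left, and of Mvp†, which moved further. Among restored genes not shown it stood in those of Ckmt2†, which had fallen with Rb1 loss, and of Etnk2, which had risen. All promoters are RefSeq sequences of GRCm38.p6, running from 250 bases before to 50 bases after the transcription start. Clspn, a checkpoint adaptor of replication forks (chr4:126556730-126557029, plus strand), moved further up, and Dtl, which targets the licensing factor Cdt1 for destruction (chr1:191575495-191575794, minus strand), was left high. In both, capitals mark an E2F motif, searched on both strands as TTTCCCGC, TTTCGCGC, TTTGCCGC or TTTGGCGC. Casq1†, the calcium-binding protein of the muscle calcium store (chr1:172219846-172220145, minus strand), and Myoz2, a Z-disc protein (chr3:123034938-123035237, minus strand), were restored. There capitals mark the E-box CAGCTG, a form bound by MyoD and Myog, and in Myoz2 also a MEF2 motif, which stands before its E-box.
Clspn: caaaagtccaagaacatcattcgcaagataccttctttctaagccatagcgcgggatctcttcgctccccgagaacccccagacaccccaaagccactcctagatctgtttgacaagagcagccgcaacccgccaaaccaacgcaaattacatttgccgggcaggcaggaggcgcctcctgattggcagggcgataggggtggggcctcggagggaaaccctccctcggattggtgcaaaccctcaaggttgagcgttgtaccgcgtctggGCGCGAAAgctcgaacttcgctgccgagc
Dtl: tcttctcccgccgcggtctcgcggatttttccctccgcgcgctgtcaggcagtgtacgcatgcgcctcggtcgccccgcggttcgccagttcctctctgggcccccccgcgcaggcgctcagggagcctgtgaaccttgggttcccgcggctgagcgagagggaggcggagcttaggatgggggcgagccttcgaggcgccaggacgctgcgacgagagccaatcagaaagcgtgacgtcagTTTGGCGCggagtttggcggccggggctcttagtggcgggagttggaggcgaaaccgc
Casq1: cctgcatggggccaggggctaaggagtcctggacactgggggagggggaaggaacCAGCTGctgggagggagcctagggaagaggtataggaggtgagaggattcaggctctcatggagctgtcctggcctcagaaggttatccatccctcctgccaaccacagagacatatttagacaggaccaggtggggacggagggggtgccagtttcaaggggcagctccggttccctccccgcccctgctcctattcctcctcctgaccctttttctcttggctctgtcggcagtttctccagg
Myoz2: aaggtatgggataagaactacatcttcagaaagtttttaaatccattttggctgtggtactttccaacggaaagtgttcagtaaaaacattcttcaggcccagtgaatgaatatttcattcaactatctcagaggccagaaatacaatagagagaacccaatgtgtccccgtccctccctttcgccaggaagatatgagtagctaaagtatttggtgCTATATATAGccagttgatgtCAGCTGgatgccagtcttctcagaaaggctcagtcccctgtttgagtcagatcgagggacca

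The E2F motif was found in 9.63% of 405 promoters of genes that rose with Rb1 loss and were left (82.0% of the coding genes matched), in 2.15% of 325 promoters of genes that fell and were left, in 1.89% of 159 promoters of genes that fell and moved further, and in 2.27% of all 32851 promoters of the table. Among the 13730 promoters of all genes tested (79.5% of the coding genes matched) it was found in 3.65%. TTTGAA, the cell cycle homology region of late cell-cycle genes, was found in 58.0% of 81 promoters of the G2/M and mitosis list, against 11.97% of those of genes tested and 17.9% of all. The E-box CAGCTG was found in 52.6% of 19 promoters of the thin filament list and in 28.6% of 21 promoters of the thick filament list. Its share was 15.9% among genes tested and 16.3% among all. The MEF2 motif was found in 23.8% of the thick filament promoters but in only 5.26% of the thin filament promoters. Its share was 1.74% among genes tested and 3.19% among all. Promoters of genes that fell and moved further held the E-box in 15.1%, TTTGAA in 11.3% and the MEF2 motif in 0.629%. Motifs were searched on both strands and may overlap each other. Other classes and lists looked at, including the restored genes as a whole, had fewer than 80% of their coding genes in the table, so no share is given for them.

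Genes of the contractile apparatus rose together in DKO against Rb1 KO. Of 22 thick filament genes 19 were higher and 0 lower in DKO than in Rb1 KO, with a median difference of 1.84, whereas 23.0% of all genes were higher, 24.3% lower and the median was -0.01. Here 17 of the 19 changed by Rb1 loss were restored. Myh3, the embryonic myosin heavy chain, had 20397 and 21204 normalised counts in DKO, against 4384 and 4678 in Rb1 KO, 99141 and 107427 in Kdm5a KO and 77084 and 76912 in WT. It rose by 2.20 ± 0.05 (limma adjusted p = 1.39e-11) and recovered 53.8% of its loss. Myom2, which links thick filaments at the M-band, had 4612 and 4679.6 in DKO, against 1317 and 1259 in Rb1 KO and 4589.6 and 4391 in WT. Both DKO libraries lay just above both WT libraries there, a recovered share of 103%. Myl1, an alkali light chain of fast myosin (2.32, 63.7% recovered), and Unc45b†, the chaperone that folds myosin heads (2.30, 72.3%), rose as well.

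Thin filament genes did the same, with 17 of 20 higher, 0 lower and a median of 1.53. All 17 that had changed with Rb1 loss were restored. Neb†, the giant ruler protein of the thin filament, had 12659.9 and 13422 normalised counts in DKO, against 1491 and 1422 in Rb1 KO and 18682 and 16672 in WT (3.16 ± 0.06, limma adjusted p = 4.98e-12). Lmod2, which nucleates actin filaments, had 2048 and 1979 in DKO, against 108 and 121 in Rb1 KO and 4309.7 and 4254 in WT (4.12 ± 0.08, limma adjusted p = 4.46e-12). The groups stood far apart in both genes, and DKO stayed below WT. Klhl41, a stabiliser of nebulin, recovered 65.0% and Tnni1, the slow troponin inhibitor, 50.5%.

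In the Z-disc and titin list 23 of 32 genes were higher and 5 lower, with a median of 1.13. Capn3†, a muscle protease bound to titin, had 1711 and 1914 normalised counts in DKO, against 101 and 94.1 in Rb1 KO and 3406 and 3554 in WT, the widest gap of the 4 named members (4.20 ± 0.08, limma adjusted p = 4.46e-12). Des†, the intermediate filament around the Z-disc, had 7155 and 7299 in DKO, against 1161 and 1254 in Rb1 KO and 21741 and 22174 in WT, and recovered 61.7%. Actn2 (alpha-actinin 2) recovered 60.2% and Myoz2 57.2%. Csrp3, a Z-disc stress sensor, was left at 78.4 and 96.8 in DKO, against 87.8 and 86.0 in Rb1 KO and 233 and 239.8 in WT, with overlapping libraries of the knockouts.

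Calcium handling and excitation genes were higher in DKO in 26 of 30 cases and lower in 1 (median 1.39). Sln encodes sarcolipin, a small inhibitor of the sarcoplasmic calcium pump. It had 1133 and 1138 normalised counts in DKO, against 21.6 and 15.4 in Rb1 KO, 252 and 242 in Kdm5a KO and 267 and 244 in WT (5.88 ± 0.18, limma adjusted p = 8.78e-11). DKO thus stood above WT by 2.15 ± 0.18, a recovered share of 158%. Kcnj2, an inward rectifier potassium channel, had 1885 and 1867 in DKO, against 366 and 371 in Rb1 KO and 2661 and 2225 in WT. Trdn (triadin, 2.09) and Srl (sarcalumenin, 1.42), both of the calcium store, recovered 62.8% and 45.7%.

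Of 23 genes of the neuromuscular junction and membrane complex 12 were higher and 4 lower, a smaller median of 0.42. Musk, the receptor kinase that clusters acetylcholine receptors, had 575 and 604 normalised counts in DKO, against 94.5 and 84.2 in Rb1 KO, 1654 and 1799 in Kdm5a KO and 4442 and 4721 in WT (2.71 ± 0.09, limma adjusted p = 2.29e-10). It recovered 47.9% and remained well below WT. Chrnd, the delta subunit of that receptor (1.87), and Dtna† (dystrobrevin, 2.42) rose too. Rapsn† (rapsyn, the receptor's anchor) was left at 396 and 517 in DKO, against 371 and 410.0 in Rb1 KO and 1171 and 1072 in WT (0.21), but passed as a rise without DKO replicate 1 (0.40, limma adjusted p = 0.0249).

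Muscle energy metabolism followed the filaments, with 25 of 29 genes higher and 0 lower (median 1.31). Ckm†, the muscle creatine kinase, had 1213 and 1167 normalised counts in DKO, against 284 and 274 in Rb1 KO, 1293 and 883 in Kdm5a KO and 2827 and 2456 in WT (2.09 ± 0.14, limma adjusted p = 1.14e-07). DKO and Kdm5a KO libraries overlapped for Ckm†, and WT lay above both. Ppp1r3a, the glycogen-targeting subunit of protein phosphatase 1, had 1781 and 1888 in DKO, against 77.0 and 99.6 in Rb1 KO and 3616 and 3455 in WT. Pfkm† (muscle phosphofructokinase, 1.71) and Pygm (muscle glycogen phosphorylase, 1.70) recovered 62.0% and 52.6%, and Gys1†, muscle glycogen synthase, was left (0.16, limma adjusted p = 0.0517). Gys1† passed as a small rise with edgeR (0.17, adjusted p = 0.0314) and DESeq2 (0.20, adjusted p = 0.0144), and in limma with TMM scaling, a pseudocount of 5, a mean of at least 50 or without DKO replicate 1 (adjusted p 0.0302 to 0.0499).

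The 10 largest rises in DKO against Rb1 KO, among genes with a group mean of at least 100, were Sln, Cox6a2†, Casq1†, Pde1c, Csf2rb2†, Mybpc1†, Fitm1†, Ppp1r3a, Ky and Ubb, with 5.88 for Sln and 4.26 for Ubb at the ends. Cox6a2†, the heart and muscle form of a cytochrome oxidase subunit, had 413 and 374 normalised counts in DKO, against 6.75 and 9.96 in Rb1 KO and 1333 and 1451 in WT, and Casq1† had 282 and 260.0 in DKO, against 23.0 and 3.62 in Rb1 KO and 767 and 696 in WT. Both rest on few reads in Rb1 KO, and the 2 Rb1 KO libraries of Casq1† differed several-fold (5.42 ± 0.17 for Cox6a2† and 4.69 ± 0.51 for Casq1†). Mybpc1†, slow myosin-binding protein C, had 4761 and 4787 in DKO, against 270.1 and 176 in Rb1 KO and 3555 and 4236 in WT. Pde1c, a calmodulin-dependent phosphodiesterase, and Ky, a muscle transglutaminase-like protein, ended above WT (DKO minus WT 0.94 and 1.36), and Ubb, a polyubiquitin gene, had 588 and 614 in DKO, against 40.5 and 22.6 in Rb1 KO and 695 and 716 in WT. Csf2rb2† is a near copy of Csf2rb, so its reads are uncertain for that reason also.

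**Figure D2:**
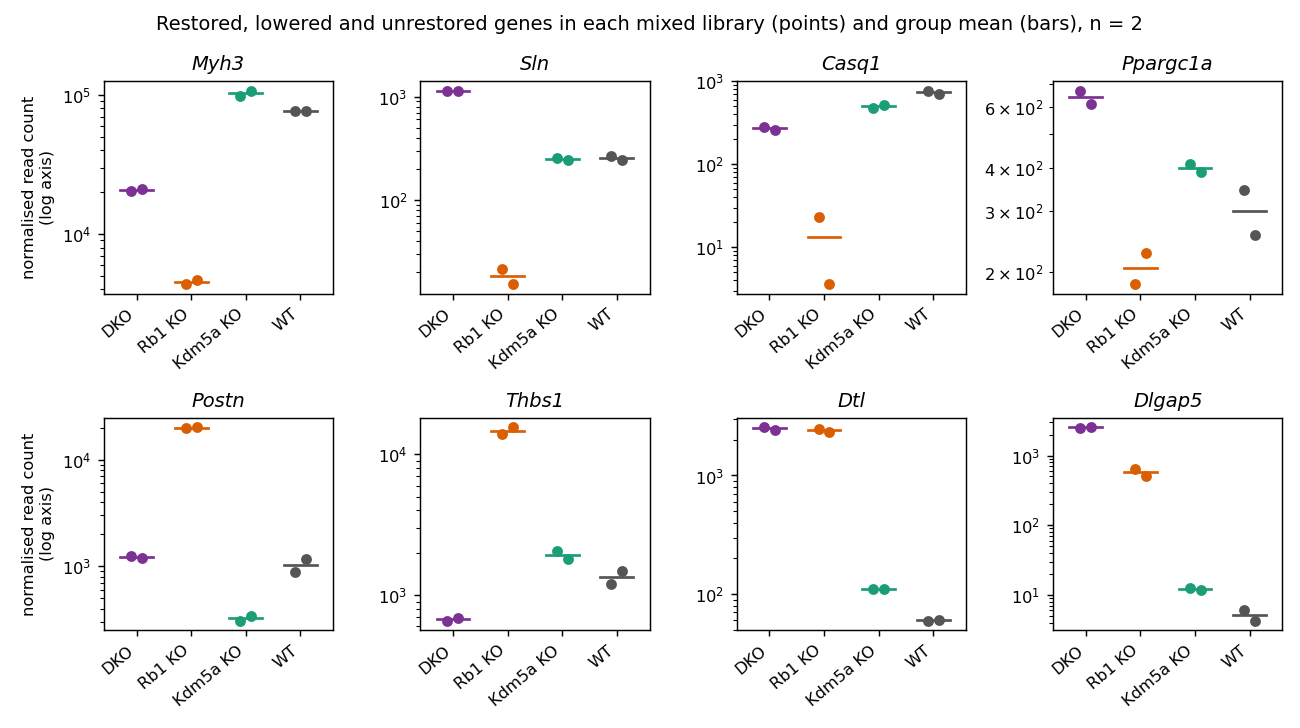
Normalised read counts (log axes, each panel its own) of 8 genes in the 2 mixed libraries of DKO, Rb1 KO, Kdm5a KO and WT, with bars at the group means. Myh3, Sln, Casq1† and Ppargc1a are higher in DKO than in Rb1 KO, Postn and Thbs1† are lower, Dtl differs little between them and Dlgap5 is higher still in DKO.

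The list of factors that direct the muscle programme and of their inhibitors did not rise as a whole. Of 30 myogenic transcription factors and inhibitors 6 were higher and 15 lower (median -0.29). The list pools activators with inhibitors, so these counts do not describe the activators alone. Myod1 was left, with 2502 and 2611 normalised counts in DKO, against 2351 and 2907 in Rb1 KO, 4124 and 4120.2 in Kdm5a KO and 5852 and 6886 in WT (-0.03 ± 0.09, 95% interval -0.24 to 0.17, limma adjusted p = 0.804). Reads of the virus's MyoD and of the cell's own gene were not separated. Myog, the factor of terminal differentiation, rose slightly, to 13308 and 12735 in DKO, against 10378 and 10372 in Rb1 KO and 16127 and 18252 in WT (0.33 ± 0.06, limma adjusted p = 0.000433). Mef2c rose to 4603 and 4824 in DKO, against 1252 and 1346 in Rb1 KO and 14872 and 15866 in WT, and Tead4 (1.50) and the muscle nuclear protein gene Mlip (3.55) rose with it. Id3, which keeps MyoD from binding its partner E proteins, fell to 1024 and 965 in DKO, against 2162 and 2408 in Rb1 KO and 2099 and 2454 in WT.

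Genes of myoblast fusion and adhesion split, with 10 of 26 higher, 7 lower and a median of 0.04. Mymx, the microprotein that opens the fusion pore, had 2166 and 1994 normalised counts in DKO, against 789.9 and 716 in Rb1 KO and 779 and 738 in WT, a rise in a gene that Rb1 loss had not changed (1.47 ± 0.08, limma adjusted p = 2.39e-08). Elmo1†, part of a Rac activator, recovered 107% and Itga7†, the laminin receptor of muscle, 39.1%. Cdh2 (N-cadherin) fell (-1.25), and its difference from WT in DKO was -0.08 ± 0.07. Cdh15 (M-cadherin) was left at 1492 and 1442 in DKO, against 1573 and 1472 in Rb1 KO and 4622 and 4619 in WT, and Jam2, an adhesion molecule of myoblasts, was left likewise (-0.11).

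Not every muscle gene came back. Among the genes that had fallen furthest and were left were Myh1†, Myhas†, Rhobtb1†, Stom and Sod2. Myh1†, the fast IIx myosin heavy chain, had 559 and 568 normalised counts in DKO, against 582 and 558 in Rb1 KO, 5672 and 6228 in Kdm5a KO and 13805 and 13381 in WT, a difference of -0.02 ± 0.06 (limma adjusted p = 0.862). Its exons overlap those of Myhas†, an antisense RNA of the myosin cluster, so reads of the pair cannot be told apart here. Sod2, the mitochondrial superoxide dismutase, stood at 335 and 296 in DKO, against 286 and 323 in Rb1 KO and 1406 and 1532 in WT. The libraries of DKO and Rb1 KO overlapped in Myh1† and Sod2, far below WT.

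Genes that fell with Rb1 loss and fell further in DKO were few (175), and those with the largest Rb1 change included Gja5†, Crct1, Mvp†, Dner† and Fjx1. Gja5† (connexin 40) had 971 and 932 normalised counts in DKO, against 1173 and 1186 in Rb1 KO, 24762 and 23698 in Kdm5a KO and 23253 and 25269 in WT. Nearly all of that loss came with Rb1 (-4.36), and DKO differed from Rb1 KO by a further -0.31 ± 0.06 (limma adjusted p = 0.000531). Crct1 had 33.7 and 30.8 in DKO, against 235 and 176 in Rb1 KO and 2184 and 2515 in WT, where the second step was large (-2.62 ± 0.14, limma adjusted p = 1.87e-08).

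Nuclear genes of the respiratory chain rose in part, more often in complexes II to V than in complex I. Of 36 complex I subunits 11 were higher and 3 lower in DKO than in Rb1 KO, and 22 did not pass. Among all genes 23.0% were higher and 24.3% lower. The complex I median was 0.18, set against a median of -1.07 in Rb1 KO against WT. For complexes II to V 21 of 44 were higher and 1 lower (median 0.26). Ndufb9†, an accessory subunit of complex I, had 1363 and 1395 normalised counts in DKO, against 837 and 813 in Rb1 KO and 2337 and 2422 in WT, so it recovered 48.5%. Atp5b, the catalytic beta subunit of ATP synthase, had 7808 and 7743 in DKO, against 5647 and 5524 in Rb1 KO and 17535 and 17708 in WT, a rise of 0.48 ± 0.04 (limma adjusted p = 2.20e-06). The muscle form Cox8b regained 88.2%, whereas the widely expressed Uqcrc1 (1754 and 1763 in DKO, against 1732 and 1719.7 in Rb1 KO and 3979 and 4090.1 in WT) and Sdhb (0.00) were left.

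Ppargc1a, the coactivator that drives formation of mitochondria, rose above WT. It had 669 and 614 normalised counts in DKO, against 185 and 227 in Rb1 KO, 409.6 and 390.0 in Kdm5a KO and 345 and 257 in WT (1.64 ± 0.15, limma adjusted p = 2.41e-06). Its nuclear receptor partner Esrrg had 841 and 839.9 in DKO, against 63.5 and 73.3 in Rb1 KO and 191 and 183 in WT, and no library of another group came near the DKO level. The other genes of mitochondrial biogenesis, dynamics and import were divided, with 15 of 39 higher and 9 lower (median 0.06). Of 77 mitochondrial ribosomal genes 16 were higher and 9 lower (median 0.07), shares no greater than among all genes. The genes of the mitochondrial genome itself, a group looked at after the values were seen, were higher in 19 of 24 cases and lower in 0, with medians of 0.77 in DKO against Rb1 KO and -0.72 in Rb1 KO against WT. Its ribosomal RNA mt-Rnr2 took 13.9 and 12.4% of reads in DKO, against 10.9 and 10.0% in Rb1 KO and 13.8 and 14.6% in WT, and ribosomal depletion acts on that RNA.

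In the tricarboxylic acid cycle 15 of 28 genes were higher and 3 lower (median 0.25). Mdh1†, cytosolic malate dehydrogenase, had 3504 and 3635 normalised counts in DKO, against 2098 and 1933 in Rb1 KO and 5968 and 5939 in WT, and recovered 52.8%. Its mitochondrial counterpart Mdh2 was left at 1137 and 1177 in DKO, against 1204 and 1254 in Rb1 KO and 2631 and 2563 in WT. Fatty acid oxidation genes were higher in 11 and lower in 7 of 31 cases (median 0.26). Cd36, a fatty acid transporter, had 904 and 853 in DKO, against 47.3 and 63.4 in Rb1 KO, 118 and 182 in Kdm5a KO and 704 and 1031 in WT, so DKO and WT overlapped and both single knockouts were low. Acsl1†, the acyl-CoA synthetase of muscle, recovered 82.9%. Cpt1a, the liver form of the gate to mitochondrial oxidation, fell to 237 and 199.5 in DKO, against 851 and 847 in Rb1 KO and 487 and 438 in WT.

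Glycolysis and glucose transport had 9 higher and 6 lower of 22 genes (median 0.09), with different directions for different forms of an enzyme. Eno3, muscle enolase, had 6414 and 6342 normalised counts in DKO, against 2684 and 2475 in Rb1 KO and 13880.2 and 12878 in WT (1.31 ± 0.06, limma adjusted p = 1.83e-09). Pfkl, the liver phosphofructokinase, had 242 and 219 in DKO, against 739 and 780.2 in Rb1 KO and 1414 and 1586 in WT (-1.72 ± 0.09, limma adjusted p = 1.04e-08). The glucose transporter Slc2a1† fell (-1.32), and Eno1, the common enolase, was left (0.11). Cholesterol synthesis genes were higher in 8 and lower in 10 of 24 cases (median -0.13). Of the 15 changed at least 2-fold by Rb1 loss 7 were restored, 2 left and 5 moved further. The sterol enzymes Cyp51† (0.74) and Dhcr7 (0.97) were among those that rose.

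Few of the replication genes that Rb1 loss had raised came down. Of 69 genes of DNA replication and the G1/S step 68 had risen in Rb1 KO against WT (median 3.13). In DKO against Rb1 KO 22 were higher and 10 lower (median 0.10), and of the 64 changed at least 2-fold by Rb1 loss 9 were restored, 14 left, 18 moved further and 23 undecided. Dtl had 2543 and 2440.3 normalised counts in DKO, against 2460.2 and 2346 in Rb1 KO, 109 and 111 in Kdm5a KO and 59.8 and 60.8 in WT. The difference was 0.05 ± 0.10 with a 95% interval of -0.16 to 0.27 (limma adjusted p = 0.701). Pole†, the leading-strand polymerase (-0.03), Wdhd1†, which ties it to the helicase (-0.08), Brip1, a helicase of repair (0.03), and Fam111a†, a protease at stalled forks (0.16), were left as well, and so was the connexin Gjc1 (0.14), which is no cell-cycle gene. These are the 6 genes that had risen furthest among those left.

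Among cyclin genes of this list, Ccna2† (cyclin A2) had 7955 and 7997 normalised counts in DKO, against 4835 and 4173 in Rb1 KO and 312 and 310.2 in WT (0.83 ± 0.08, limma adjusted p = 3.03e-06). Higher again was Ccne2† (cyclin E2), which had 9252 and 9475 in DKO, against 5435 and 4623 in Rb1 KO and 336 and 274 in WT (0.90 ± 0.10, limma adjusted p = 1.24e-05). Both had already risen with Rb1 loss and rose further. Rrm1, the large subunit of ribonucleotide reductase, rose by 0.71 and Cdk2† by 0.84.

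Many mitotic genes that Rb1 loss had raised rose further. Of 84 genes of G2/M and mitosis 37 were higher and 2 lower in DKO than in Rb1 KO (median 0.56), on top of a median of 4.46 in Rb1 KO against WT. Dlgap5, a spindle protein, had 2521 and 2533 normalised counts in DKO, against 640.0 and 505 in Rb1 KO, 12.7 and 11.9 in Kdm5a KO and 5.98 and 4.26 in WT (2.15 ± 0.23, limma adjusted p = 6.66e-06). Top2a†, topoisomerase II alpha, had 12885 and 12913 in DKO, against 5710.4 and 4974 in Rb1 KO and 46.7 and 65.0 in WT (1.27 ± 0.14, limma adjusted p = 1.04e-05). The DKO libraries lay above both Rb1 KO libraries in each, and WT held almost none. Smc4, a condensin subunit, rose by 0.88, and the cohesion genes Sgo2a† (1.08) and Esco2 (1.09), the hyaluronan receptor Hmmr (1.07) and Clspn (0.74) rose at n = 2 a side.

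The calls of Esco2 and Hmmr were lost when any DKO or Rb1 KO library was left out (limma adjusted p 0.0835 to 0.143), and that of Clspn when either DKO library (0.0908 and 0.105) or Rb1 KO replicate 2 (0.0685) was left out. Kif15, a spindle motor (-0.02), and Cit, a kinase of cytokinesis (-0.01), were left. Ube2c† stood out by falling with Rb1 loss and recovering (8363 and 8037 in DKO, against 2024 and 1746 in Rb1 KO and 17934 and 17503 in WT), and its exons overlap those of Tnnc2, the fast troponin C gene.

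Of 34 replication-dependent histone genes 8 were higher, a share near the 23.0% of all genes, and 0 lower, and 19 of the 24 changed by Rb1 loss were undecided (their messengers lack a poly(A) tail, and these libraries were not selected for one). Cell-cycle inhibitors and p53 targets were lower in 18 and higher in 10 of 38 cases (median -0.20). Cdkn1c†, the inhibitor p57, had 20110.1 and 19710.2 normalised counts in DKO, against 4768 and 4559 in Rb1 KO, 15424 and 15905 in Kdm5a KO and 32948 and 32878 in WT (2.09 ± 0.04, limma adjusted p = 7.11e-12). Pmaip1 (Noxa), which triggers cell death, had 8101 and 7890.2 in DKO, against 2607 and 2399 in Rb1 KO and 1887 and 1860.1 in WT, so most of its rise lay between Rb1 KO and DKO. Bcl2l11 (Bim) had gone up with Rb1 loss and was left (2036 and 1993 in DKO, against 1986 and 2037 in Rb1 KO and 298 and 252 in WT).

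Pocket proteins, MuvB subunits, E2F factors and G1 cyclins moved both ways, 9 of 26 up and 7 down (median 0.13). Among all genes 23.0% were higher and 24.3% lower, so only the share that went down was near that of all genes. E2f2, an activator E2F, had 2198 and 2253 normalised counts in DKO, against 847 and 885 in Rb1 KO and 855 and 643 in WT (1.36 ± 0.11, limma adjusted p = 7.25e-07). Rbl1 (p107), the relative of the retinoblastoma protein, was left at 1521 and 1487 in DKO, against 1334 and 1316 in Rb1 KO and 219 and 181 in WT, and the E2F partner Tfdp1 was left too (0.06). Rbl1 passed as a rise of 0.18 when only DKO and Rb1 KO libraries were in the fit (limma adjusted p = 0.0296). Ccnd2† (cyclin D2) fell to 318 and 332 in DKO, against 1601 and 1689 in Rb1 KO and 826 and 843 in WT, whereas Ccnd3† (cyclin D3), which accumulates in myotubes, rose by 0.71.

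Fibroblast matrix genes were brought down. None of 61 collagens and fibroblast matrix genes was higher in DKO than in Rb1 KO and 54 were lower, with a median of -1.63 against 2.59 in Rb1 KO against WT. Of the 46 changed at least 2-fold by Rb1 loss 40 were restored and 0 left. Their summed normalised counts were 73275 to 73896 in DKO, against 281826 to 311901 in Rb1 KO, 88604 to 89115 in Kdm5a KO and 107605 to 113385 in WT, whereas the thick filament list summed to 74294 to 74699 in DKO, against 21973 to 22415 in Rb1 KO and 232541 to 240949 in WT. How far the fibroblast share of the cultures takes part in any difference described here was not tested.

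Postn (periostin) had 1259 and 1205 normalised counts in DKO, against 19721 and 20093 in Rb1 KO, 309 and 339 in Kdm5a KO and 887 and 1158 in WT (-4.01 ± 0.10, limma adjusted p = 3.25e-11). Thbs1† (thrombospondin 1) had 660.2 and 686 in DKO, against 13982 and 15561 in Rb1 KO and 1202 and 1486 in WT (-4.45 ± 0.10, limma adjusted p = 1.08e-11), so it ended below WT. The collagen genes Col12a1 (-3.74) and Col5a2 (-2.94) fell too. Among matrix proteases and inhibitors 20 of 28 were lower and 3 higher (median -0.95). The metalloprotease gene Adamts12 fell to 213 and 219.7 in DKO, against 1807 and 2014 in Rb1 KO and 623 and 658 in WT.

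Smooth muscle and myofibroblast genes were lower in 13 and higher in 3 of 21 cases (median -0.78). Acta2, smooth muscle actin, had 15912 and 15702 normalised counts in DKO, against 32211 and 32457 in Rb1 KO, 27688 and 27586 in Kdm5a KO and 37230.3 and 37645 in WT. Rb1 loss had moved it little (-0.21), and the DKO to Rb1 KO difference was larger (-1.03 ± 0.04, limma adjusted p = 7.68e-10). Tagln† (transgelin, -2.05) and Cald1 (caldesmon, -2.02) fell and differed from WT by -0.17 and 0.52 in DKO. Des†, which the list also holds, was among those that rose.

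The 10 largest falls, by the same rule, were Rprl3, Ifi202b, Luzp2, Etnk2, Pax3, Anxa8, Itgbl1, Kcnd2, Thbs1† and Pappa, and each of them had gone up with Rb1 loss and was restored. Picking the largest falls favours genes that are high in Rb1 KO, and the Rb1 change uses the same Rb1 KO libraries. That all were restored therefore follows largely from the choice of the genes. Rprl3, an RNA component gene of ribonuclease P with like copies, whose reads are uncertain, had 4.21 and 4.74 normalised counts in DKO, against 3740.3 and 4157 in Rb1 KO and 21.5 and 10.7 in WT. Ifi202b, an interferon-inducible gene, had no read in DKO, against 339 and 242 in Rb1 KO and 0 and 1.07 in WT. With 3 reads over the DKO group as a floor it was at least 429-fold lower in DKO. Pax3, a factor of muscle precursors, had 1.05 and 3.56 in DKO, against 99.9 and 110.4 in Rb1 KO and 0 and 1.07 in WT. Itgbl1, an integrin-like secreted protein, had 112 and 111 in DKO, against 2687 and 3132 in Rb1 KO and 610.2 and 737 in WT, and, like Thbs1† and Rprl3, it lay below WT. Anxa8, an annexin, kept part of its rise (62.5% recovered), and Pappa, the protease that frees insulin-like growth factors, recovered 79.7%.

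Not all strongly induced genes came back as far. Grem1, which traps bone morphogenetic proteins, had 227 and 256 normalised counts in DKO, against 521 and 583 in Rb1 KO and 1.2 and 1.07 in WT. It fell (-1.19) and recovered 14.8%, a call lost when any DKO or Rb1 KO library was left out (limma adjusted p 0.0661 to 0.142). Tex15, a gene of germ-line DNA repair, had 455 and 449.6 in DKO, against 1511 and 1404 in Rb1 KO and 4.79 and 7.46 in WT and recovered 21.9%.

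Signalling genes of the TGF-beta family were lower in 23 and higher in 5 of 38 cases (median -0.83). Among ligands, Tgfb3† fell to 2379 and 2439.5 normalised counts in DKO, against 4513 and 4731 in Rb1 KO and 5699.9 and 6307 in WT. The receptor Tgfbr2 fell to 2596 and 2698 in DKO, against 4884 and 5238 in Rb1 KO and 3740.1 and 3579 in WT, below WT although Rb1 loss had raised it. Ltbp1, which stores the ligand in the matrix, fell to 763 and 769.6 in DKO, against 3851 and 3927 in Rb1 KO and 489 and 479.7 in WT (-2.34 ± 0.09, limma adjusted p = 1.03e-09). Its relatives Ltbp2† (-0.01) and Ltbp3† (-0.11) were left high, and the follistatin-like Fstl1 recovered 70.7%.

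Notch and Wnt genes were lower in 23 and higher in 7 of 44 cases (median -0.55). The Notch ligand Jag1 had 139 and 155 normalised counts in DKO, against 528 and 519 in Rb1 KO and 61.0 and 68.2 in WT. Rspo2, which amplifies Wnt signals, had 413 and 405 in DKO, against 2807 and 3655 in Rb1 KO and 291 and 361 in WT (-2.97 ± 0.13, limma adjusted p = 3.06e-09). Wnt5a† fell to 544 and 544 in DKO, against 1746 and 1801 in Rb1 KO and 568 and 445 in WT. All 3 thus came down toward WT, and Wnt5a† overlapped it. Fzd2, a Wnt receptor, and Hes6, a Notch-related factor that rises in myoblast differentiation, had fallen with Rb1 loss and were left (0.16 and -0.07). Fzd2 passed as a rise with DESeq2 (0.20, adjusted p = 0.0442) and in limma without Rb1 KO replicate 2 (0.24, adjusted p = 0.0397).

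Growth factor and imprinted genes went both ways, with 10 of 34 higher, 12 lower and a median of 0.02. Igf1 had 2056 and 2063 normalised counts in DKO, against 5667 and 5526 in Rb1 KO and 1442 and 1584 in WT (-1.44 ± 0.06, limma adjusted p = 2.65e-09). Igfbp7† recovered 104% and the imprinted Mest† 72.1%. H19†, the abundant imprinted RNA of embryonic muscle, was left at 126793 and 111700.0 in DKO, against 106740.0 and 108689 in Rb1 KO and 236714 and 248281 in WT, although edgeR and DESeq2 called a small rise (0.16, adjusted p = 0.0213, and 0.19, adjusted p = 0.00619), as did limma with TMM scaling (0.16, adjusted p = 0.0497) and without DKO replicate 2 (0.24, adjusted p = 0.00575).

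Interferon-stimulated genes came down in part. Of 49 genes 5 were higher and 18 lower in DKO than in Rb1 KO (median -0.34), and the median against WT was 2.49 in DKO and 2.58 in Rb1 KO. Ifi44 had 148 and 123 normalised counts in DKO, against 494 and 501 in Rb1 KO and 0 and 1.07 in WT. It recovered 22.2%, and its call was lost without DKO replicate 2 (limma adjusted p = 0.0503). The immunity GTPases Irgm2† and Igtp†, which overlap each other, rose instead, Irgm2† to 2091 and 1852 in DKO, against 435 and 426 in Rb1 KO and 610.2 and 802 in WT. The antigen-presenting H2-K1 had fallen with Rb1 loss and recovered 68.7%, and Dtx3l† was left high (-0.11). The cultures had all received adenovirus.

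Chemokines and inflammatory mediators came down in 13 of 24 cases and went up in 3 (median -1.04). Csf1, the macrophage growth factor, had 872 and 1037 normalised counts in DKO, against 4348 and 4747 in Rb1 KO and 641 and 731 in WT (-2.26 ± 0.10, limma adjusted p = 2.65e-09). Cxcl12, a stromal chemokine, had 383 and 363 in DKO, against 2117 and 2355 in Rb1 KO and 151 and 124.7 in WT. Ptgs2 (cyclooxygenase 2) fell below WT, to 532 and 587 in DKO, against 1924 and 2000.3 in Rb1 KO and 788 and 795 in WT, and Cx3cl1 recovered 93.2%.

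Lysosome and autophagy genes were lower in 23 and higher in 4 of 35 cases (median -0.42), on top of a fall with Rb1 loss (median -0.45). The protease gene Ctsd† (cathepsin D) had 10331 and 9965 normalised counts in DKO, against 15802 and 14935 in Rb1 KO and 25769 and 25625 in WT (-0.60 ± 0.05, limma adjusted p = 7.58e-07). Endoplasmic reticulum stress, amino-acid stress and heat shock genes were lower in 19 and higher in 7 of 39 (median -0.38). Asns (asparagine synthetase) fell to 496 and 409 in DKO, against 1084 and 1118 in Rb1 KO and 715 and 796 in WT, and the chaperone gene Hspa8† rose to 490.3 and 438 in DKO, against 161 and 164 in Rb1 KO and 701 and 738 in WT. Proteasome genes were higher in 16 and lower in 2 of 35 (median 0.13), with Psmb7† at 0.65. Cytosolic ribosomal genes were higher in 2 and lower in 17 of 71 (median -0.17), with Rps3† at -0.49. The share lower was near the 24.3% of all genes, and 52 did not pass.

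Hox genes, which encode position along the body axis and limb in fibroblasts, were mostly lower in DKO. The set was singled out after the values were seen. Of 33 measured Hox genes 25 were lower and 2 higher in DKO than in Rb1 KO (median -1.71), with 7 of 11 lower in the Hoxa cluster, 7 of 8 in Hoxb, 4 of 7 in Hoxc and 7 of 7 in Hoxd. Hoxa9† had 19.99 and 15.8 normalised counts in DKO, against 258 and 231 in Rb1 KO, 248 and 286 in Kdm5a KO and 250.1 and 324 in WT, so only DKO was low (-3.71 ± 0.21, limma adjusted p = 2.25e-08). Hoxd13 had 139 and 102 in DKO, against 682 and 701 in Rb1 KO, 38.9 and 53.9 in Kdm5a KO and 913 and 866 in WT, low in both genotypes without Kdm5a. Hoxc6 had 62.1 and 43.5 in DKO, against 348 and 409 in Rb1 KO, 64.2 and 58.1 in Kdm5a KO and 26.3 and 23.5 in WT, a gene in which Rb1 KO stood alone.

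One of the genes that rose was Hoxa2†, toward the 3' end of its cluster, with 199.9 and 229 normalised counts in DKO, against 63.5 and 59.7 in Rb1 KO and 55.0 and 41.6 in WT. Against WT the clusters differed in sign. The medians were -0.19 in DKO and 0.14 in Rb1 KO for Hoxa, 1.22 and 2.61 for Hoxb, 1.11 and 3.88 for Hoxc, and -3.68 and -1.15 for Hoxd. In the wider list of Hox and limb genes 40 of 60 were lower and 8 higher, with the limb gene Prrx2 at 386 and 355 in DKO, against 1477 and 1734 in Rb1 KO and 2114 and 2227 in WT, and Tbx15 at 1765 and 1739 in DKO, against 3667 and 4111 in Rb1 KO and 9141 and 8668 in WT. The labels do not give the part of the embryo each culture came from, and that was not tested.

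**Figure D3:**
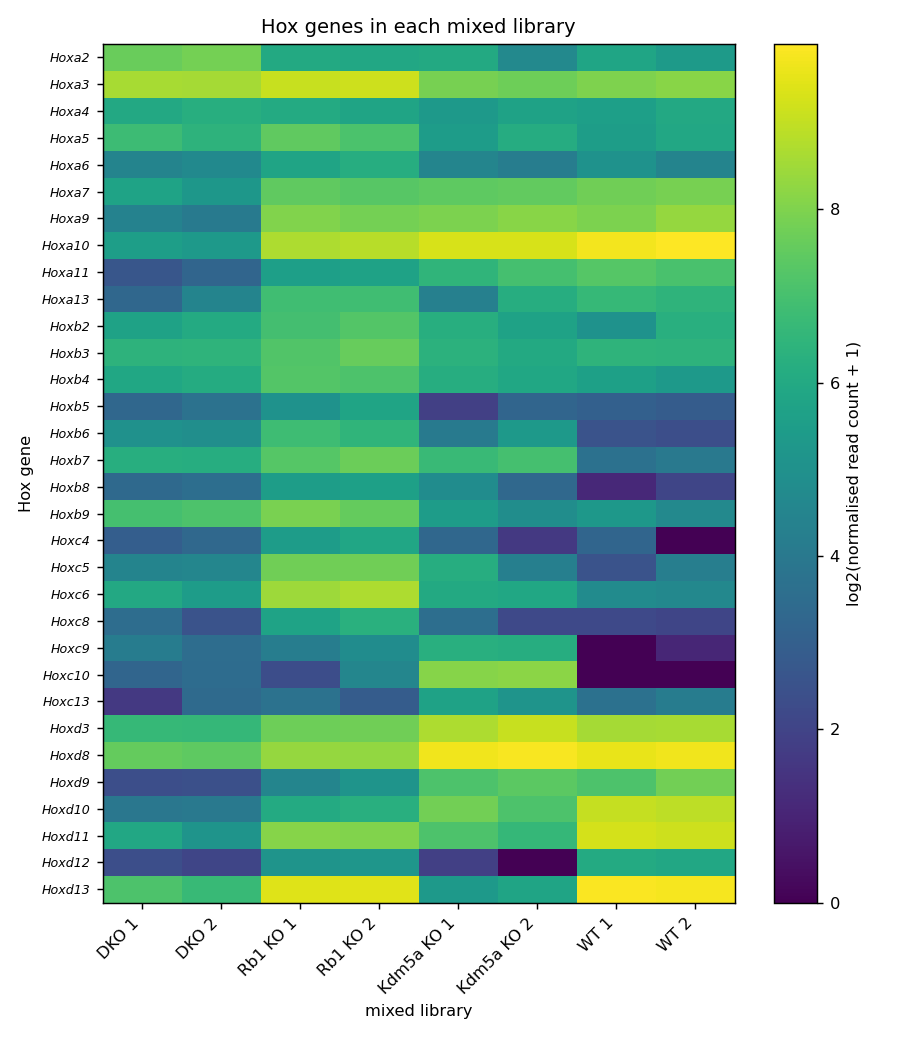
log2(normalised read count + 1) of Hox genes (rows, by cluster and position) in each mixed library (columns: DKO, Rb1 KO, Kdm5a KO, WT). Most rows are darker, that is lower, in DKO than in Rb1 KO, and Hoxa2† is among the few that rose.

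Chromatin genes moved at shares near those of all genes. Of 16 KDM5 demethylases and partners 4 were higher and 5, Kdm5a† included, lower (median 0.01). Kdm5b, the paralogue of Kdm5a, had 835 and 837 normalised counts in DKO, against 1118 and 1106 in Rb1 KO, 2255 and 2046 in Kdm5a KO and 1878 and 2113 in WT (-0.41 ± 0.08, limma adjusted p = 0.000802). Hdac1, a deacetylase of repressor complexes, rose to 632 and 682 in DKO, against 374 and 376 in Rb1 KO and 284 and 371 in WT. Polycomb and chromatin methylation genes were higher in 10 and lower in 5 of 35 cases (median 0.07). Ezh2†, the methyltransferase of Polycomb complex 2 and a known E2F target, was left at 3943 and 4313 in DKO, against 3924 and 3933 in Rb1 KO and 421 and 417 in WT, and Dnmt1, which copies DNA methylation, was left as well (0.08). The accessory subunit gene Mtf2† rose by 0.84.

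**Figure D4:**
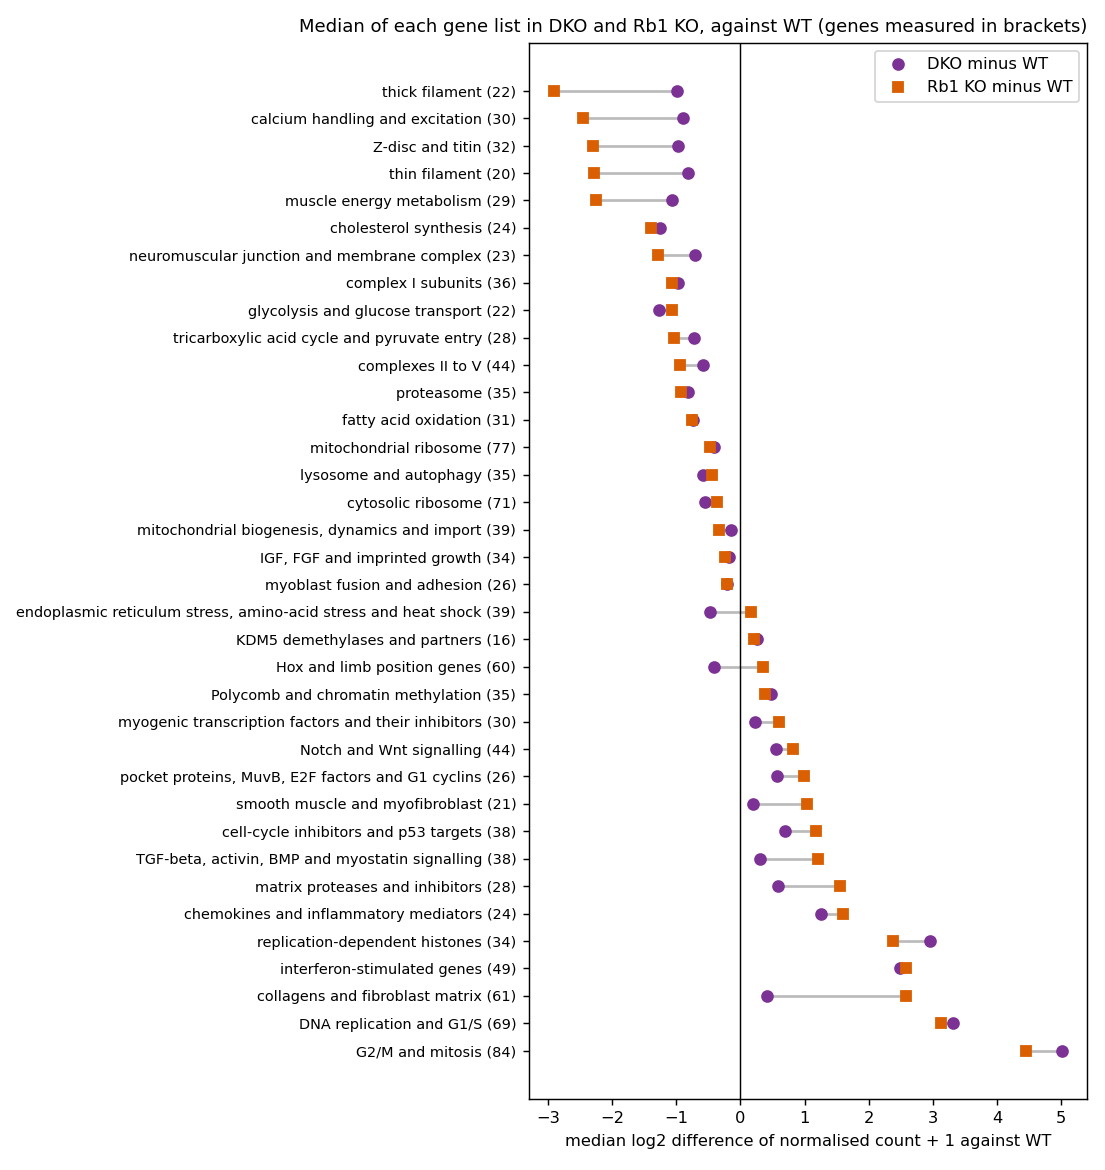
Median log2 difference against WT of each gene list in DKO (circles) and Rb1 KO (squares), with the number of genes measured in brackets and a line joining the pair. Filament, calcium and muscle energy lists sit closer to WT in DKO, as do collagens and matrix, while the DNA replication and mitosis lists lie farther from WT than in Rb1 KO and the interferon list lies nearly as far.

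Many markers of other cell types did not reach the minimum level. Adipocyte markers were measured in 7 of 15 cases (2 higher, 1 lower) and summed to 3029 to 3113 normalised counts in DKO, against 2315 to 2489.9 in Rb1 KO. Cartilage and bone markers (9 of 17 measured, 1 higher, 3 lower) summed to 8850.4 to 10058 in DKO, against 22739 to 23449 in Rb1 KO, most of it Spp1† (osteopontin) with 6891 and 7792 in DKO, against 19982 and 20506 in Rb1 KO. Macrophage and blood markers (9 of 16, 3 higher, 5 lower) summed to 571 to 578 in DKO, against 394 to 479 in Rb1 KO, and Hba-a1 and Lyz1 had no read in either. Their median was -1.42, and 2.60 among those with a mean of at least 50. Neural and glial markers (8 of 16, 1 higher, 0 lower) summed to 17586 to 17834 in DKO, against 17292 to 17322 in Rb1 KO. Epithelial markers (4 of 12, 1 higher, 1 lower) summed to 759 to 760.5 in DKO, against 279.5 to 282 in Rb1 KO, with Krt14 at 0.

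Of these marker lists only the endothelial one had most of its measured genes higher in DKO. Endothelial markers were higher in 6 of 9 measured cases and lower in 2 (of 15 in the list, median 1.38). They summed to 2037 to 2065 normalised counts in DKO, against 1333 to 1605 in Rb1 KO, 520.2 to 643 in Kdm5a KO and 442 to 546 in WT, and Sox17 and Tie1 had no read in DKO or Rb1 KO. Cdh5 (VE-cadherin) had 97.3 and 102 in DKO, against 5.40 and 18.1 in Rb1 KO and 2.39 and 3.20 in WT, and Plvap, of endothelial diaphragms, had 522 and 496 in DKO, against 176 and 190.1 in Rb1 KO and 13.2 and 22.4 in WT. The part of endothelial cells in the differences above was not tested.

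Loss of Kdm5a was then compared between the Rb1-deficient and the Rb1-containing background. In Kdm5a KO against WT 4500 genes passed in either direction (27.2%), against 7818 in DKO against Rb1 KO. These comparisons share no library. Of the 2688 genes called in both, 1558 moved in the same direction, which is 19.9% of the calls in DKO against Rb1 KO and 34.6% of the calls in Kdm5a KO against WT, and 1130 moved in opposite directions. The difference between the 2 effects of Kdm5a loss, tested as an interaction, passed for 6343 genes (38.3%), 3115 with the more positive effect in the absence of Rb1 and 3228 with the more negative. Female cells stand on the same side of both effects.

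Among restored genes the interaction passed in the direction of the restoration for 1254 of 1665 that had fallen with Rb1 loss and for 992 of 1391 that had risen. These shares follow largely from the choice of the genes, since the interaction contains the difference that made them restored. Kdm5a loss alone moved 250 of the 1665 in the direction of restoration and 312 in the opposite one, and 222 and 258 of the 1391. Of all 16544 genes 2201 were higher and 2299 lower in Kdm5a KO than in WT, which are only somewhat smaller shares. Ckm† showed opposite effects, with 2.09 ± 0.14 in DKO against Rb1 KO and -1.30 ± 0.14 in Kdm5a KO against WT (interaction 3.39 ± 0.20, limma adjusted p = 6.90e-08). Myog rose by 0.33 in the first and fell in the second (-0.95), with an interaction of 1.28 ± 0.08 (limma adjusted p = 1.41e-07). For Myh3 both effects were rises, 2.20 in DKO against Rb1 KO and 0.42 in Kdm5a KO against WT (interaction 1.78 ± 0.07, limma adjusted p = 3.45e-09). Thbs1† fell in the absence of Rb1 and rose in its presence (-4.45 and 0.52, interaction -4.98 ± 0.14, limma adjusted p = 2.16e-10). For Kdm5a† itself the effects were -0.56 and -0.62, an interaction of 0.06 ± 0.12 (limma adjusted p = 0.749).

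By chromosome, the median DKO to Rb1 KO difference lay between -0.08 and 0.02 on 18 autosomes and at 0.13 on chromosome 6, which carries Kdm5a. There 32.3% of 798 genes were higher and 19.9% lower. In checks added after the values were seen, taking each DKO library against each Rb1 KO library gave 0.12 to 0.18 for chromosome 6, and genes with a mean of at least 100 gave 0.10. In DKO against WT the chromosome 6 median was 0.23, in Rb1 KO against WT 0.09 and in Kdm5a KO against WT 0.05. Other chromosomes stood apart in Kdm5a KO against WT, with medians of -0.10 on chromosome 4, -0.15 on chromosome 5 and -0.15 on chromosome 7. The remaining autosomes lay between -0.01 and 0.07 there. The interaction uses the Kdm5a KO libraries, and the part of these shifts in it was not tested. Of the genes set aside, 651 were on X, with 167 higher and 139 lower, and 4 on Y, all lower.

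**Figure D5:**
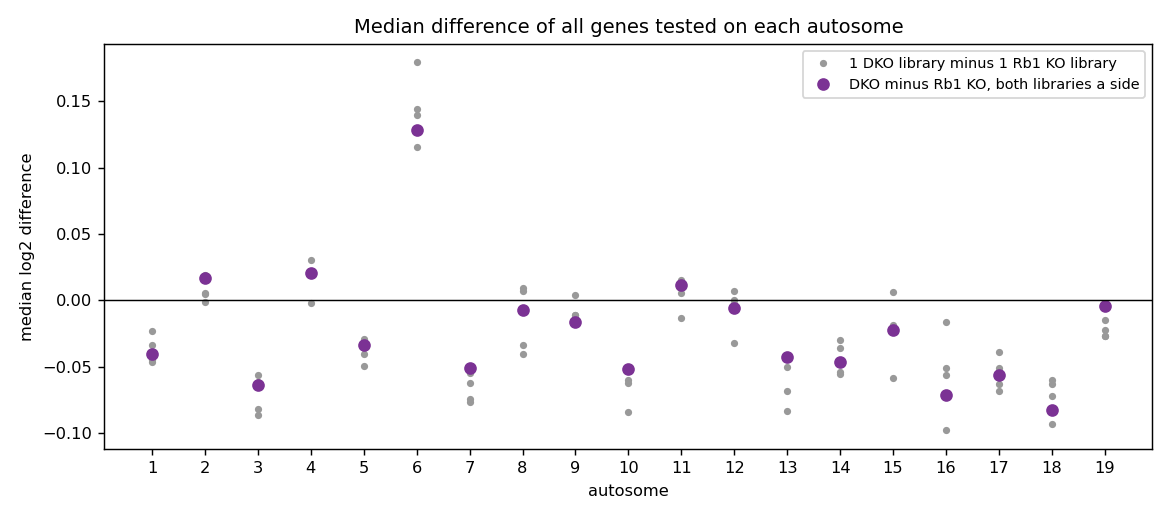
Median log2 difference of DKO minus Rb1 KO over all genes tested on each autosome (large points, both libraries a side; small points, each DKO library against each Rb1 KO library). Chromosome 6 stands at 0.13 and the other 18 autosomes lie between -0.08 and 0.02.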

How the data were processed

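Expression was measured by RNA sequencing of ribosome-depleted RNA from 8 mixed cultures, 2 per genotype. Reads were aligned to mm9 with TopHat 1.2.0 and normalised with DESeq, per the submitters' processing notes, and the read counter, strand use and annotation are not given in the sources used here. The deposited signal values are the authors' normalised read counts, that is reads divided by a size factor per library. Dividing by the smallest step of each library gave whole reads for 100% of values within 0.01, which is how the read totals were obtained. Names and exon overlaps came from GENCODE M21, a later build, which named 30983 identifiers (85.5%). No column was left out as belonging to another series (0 such columns).

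The test was limma 3.58.1 (R 4.3.3) with an intensity trend on log2(value + 1), on the 17199 genes with a mean of at least 10 over all 8 libraries, with Benjamini-Hochberg adjustment over them. X and Y genes (655) were set aside afterwards. The deposited values and edgeR 4.0.16 and DESeq2 1.42.0 on recovered reads served for alternatives, besides other pseudocounts (0.5 and 5), filters, TMM scaling, library sets and the replicate block. The method was tested on simulated data. Genes named are 8 fixed ones (Rb1, Kdm5a, Kdm5b, Myod1, Myog, Myh3, Ckm and Ppargc1a), the 10 largest rises and falls with libraries that do not overlap and a group mean of at least 100, the 6 of each class with the largest Rb1 change, and per list up to 4 with the smallest p and 2 left. Some genes that the rule names are not reported here. Members and the 43 gene lists were chosen with earlier results of these data known. Promoters were matched by gene in RefSeq. For counts, 3 reads over a group served as the floor where none was seen, and floors cover counting error only. Tables were handled in Python 3.11.15 with numpy 2.4.6 and pandas 2.3.3.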

Additional observations from a re-analysis of the deposited data

Results flagged for a closer look

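Loss of Kdm5a had a different effect with and without Rb1 in 6343 genes by the interaction test, and this is what brings them here. The effect was more positive in the absence of Rb1 for 3115 genes and more negative for 3228. Among the 8 genes always named, the difference between the effects (DKO minus Rb1 KO, less Kdm5a KO minus WT) passed for 7. It was 3.39 for Ckm†, 1.78 for Myh3, 1.28 for Myog, 1.21 for Ppargc1a and 0.59 for Myod1, so in these 5 muscle genes the effect was more positive without Rb1 (limma adjusted p 6.90e-08, 3.45e-09, 1.41e-07, 0.000798 and 0.00362). It was 0.43 for Rb1†, whose exons overlap other genes, and -0.52 for Kdm5b, the paralogue of Kdm5a (limma adjusted p 0.000444 and 0.00250). Myod1 stood at 2502 and 2611 normalised counts in DKO, against 2351 and 2907 in Rb1 KO, and was lower at 4124 and 4120.2 in Kdm5a KO, against 5852 and 6886 in WT. Groups of 2 libraries are too small for a check of single outlying libraries.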

How the results depend on the processing

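Among the named genes no DKO to Rb1 KO difference that passed changed direction under another setting. Over genes and settings 4701 values stayed on the same side of the threshold, 43 newly passed and 21 no longer did. On recovered reads edgeR called 4078 genes higher and 4190 lower, and DESeq2 3931 and 3629, and with only the DKO and Rb1 KO libraries in the fit 4295 and 4602 passed. Leaving out genes that share exons cut the counts to 2480 higher, 2506 lower, 235 left among those that fell with Rb1 loss, 908 restored and 230 left among those that rose, and 4000 for the interaction, since fewer genes were tested. The classes depend on their definitions. With no minimum for the Rb1 change 1355 genes were left on the side that fell, and 2364 were restored and 1043 left on the side that rose. With a minimum of 2 these were 730 restored and 15 left (fell) and 643 restored and 90 left (rose). An interval within 1 of 0 gave 637 and 950 left. Leaving out 1 library at a time gave 2716 to 4094 genes higher, 2900 to 4341 lower, 1381 to 1704 restored and 300 to 379 left on the side that fell, 1029 to 1520 restored and 268 to 433 left on the side that rose, and 4737 to 6438 for the interaction, where a lone library is assumed to vary like the other groups. Several list medians changed sign, most of them near 0. Without genes that share exons they were -0.078 for fusion and adhesion, -0.12 for growth factor and imprinted genes and 0.16 for cartilage and bone markers, and with a mean of at least 50 the macrophage and blood median was 2.60, against -1.42 with at least 10. Leaving out 1 library moved fusion and adhesion between -0.028 and 0.11, KDM5 demethylases and partners between -0.0044 and 0.040, and cartilage and bone markers between -0.52 and 0.091, and the cause was not tested. The same replicate numbers do not pair the libraries (correlations of their deviations -0.033 to 0.053), and a fit with the replicate block gave 3767 higher, 3995 lower, 1652 and 1379 restored, 361 and 378 left and 6295 for the interaction. At this depth and n = 2 the low genes stayed undecided. Class sizes with only the DKO and Rb1 KO libraries could not be computed, because WT is not in that fit.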

Other observations

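Single genes, picked after their values were seen, showed other orders of the 4 groups. Anxa8, an annexin, was high in both single knockouts and lower in the double one, with 38.4 and 26.9 normalised counts in DKO, 934 and 1003 in Rb1 KO, 92.2 and 107 in Kdm5a KO and 3.59 and 3.20 in WT (interaction -9.39 ± 0.39, limma adjusted p = 4.48e-09). Cdh5, the endothelial cadherin, was higher in the groups without Kdm5a, which were also female, on both backgrounds. It had 97.3 and 102 in DKO, 5.40 and 18.1 in Rb1 KO, 25.3 and 25.9 in Kdm5a KO and 2.39 and 3.20 in WT (interaction 0.37 ± 0.73, limma adjusted p = 0.726). The WT level rests on 5 reads and the Rb1 KO level on 24. Hoxa10, a limb Hox gene, had 46.3 and 39.9 in DKO, 417 and 464 in Rb1 KO, 634 and 635 in Kdm5a KO and 853 and 960.4 in WT, so every knockout lay below WT and DKO lowest. Luzp2, a leucine zipper protein gene, had 3.68 and 0.790 in DKO, 135 and 118 in Rb1 KO, 0 and 1.40 in Kdm5a KO and 0 and 2.13 in WT, high in Rb1 KO alone.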
